A study of Mus musculus with 23 samples.

Results

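Amino acid transporter genes were taken as the genes of the solute carrier families Slc1, Slc3, Slc6, Slc7, Slc36, Slc38 and Slc43, chosen by gene symbol alone, and 60 of the 29032 gene symbols in the expression table met that rule. The cells were embryoid bodies (EBs), clumps that mouse embryonic stem cells (ESCs) make in suspension culture once leukaemia inhibitory factor (LIF) is withdrawn, and ESCs themselves. The series asks how Nodal signalling works through Trim33, a protein that reads histone marks and joins with activated SMADs. Its 23 samples include 10 RNA-seq libraries in 5 groups of 2, and the other 13, of chromatin assays, were not analysed here.

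The first group was Trim33-null EBs at day 2.5 given activin A, a ligand that uses the receptors of Nodal, at 50 ng/ml for 2 h. The second was Trim33-null EBs at day 2.5 given SB431542, an inhibitor of those receptors' kinase. The remaining EB groups were wild-type (WT) EBs at day 2.5 given activin A or SB431542 in the same way. All 4 EB groups came from cells of C57Bl/6J background per the labels and were grown without LIF on plates to which cells do not attach. The reference for differentiation was WT ESCs of the line E14, kept with LIF on gelatin and given activin. Medium with 15% serum, which itself carries amino acids and growth factors, was listed for all 10 libraries. Cell state and cell line changed together between EBs and ESCs and cannot be told apart. The SB431542 dose reads 10 micromolar in one label and the same figure in millimolar in another, and its duration is 1 h by the protocol but 2 h by the titles. The ESC titles carry the letters LKO, although genotype label and table column give wild type. The titles number the Trim33-null samples 1 and 4, which could not be matched to the column numerals I and II, and libraries therefore carry the numeral of their column. The labels do not say whether the 2 libraries within a group are separate cultures, and the spread behind each p-value may therefore be technical.

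Amino acids cross membranes through carriers that differ in what they bind and in what drives them. Sodium-coupled carriers such as those of Slc1, Slc6 and part of Slc38 concentrate amino acids in the cell, whereas the Slc7 light chains that pair with the heavy chain Slc3a2 (CD98) mostly exchange an amino acid inside for one outside. Members of Slc36 and Slc38 on the lysosome return amino acids to the cytosol, where their supply is read by mTORC1, and shortage of amino acids is read by the transcription factor ATF4, which induces many carriers. Slc6 also holds carriers of monoamines, creatine and taurine, so the symbol rule is wider than amino acids alone.

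The promoters of 4 members are shown, since ATF4 acts through a known DNA element and since Slc38a6 had the largest genotype difference described further on. They are RefSeq sequences of the build GRCm38.p6, from 250 bases before to 50 bases after the annotated start, and capitals mark the core of the ATF4 element, TGATGNAA, on either strand. They lie at chr3:50443564-50443863 (minus strand) for Slc7a11, chr11:20332664-20332963 (minus strand) for Slc1a4, chr14:54417895-54418194 (minus strand) for Slc7a7 and chr12:73286598-73286897 (plus strand) for Slc38a6.
Slc7a11: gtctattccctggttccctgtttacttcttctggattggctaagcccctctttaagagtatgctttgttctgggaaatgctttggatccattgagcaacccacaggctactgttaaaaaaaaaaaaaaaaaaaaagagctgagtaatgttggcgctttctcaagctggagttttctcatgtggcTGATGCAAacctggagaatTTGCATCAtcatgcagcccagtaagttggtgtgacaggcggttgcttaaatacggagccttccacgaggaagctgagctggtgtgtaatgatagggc
Slc1a4: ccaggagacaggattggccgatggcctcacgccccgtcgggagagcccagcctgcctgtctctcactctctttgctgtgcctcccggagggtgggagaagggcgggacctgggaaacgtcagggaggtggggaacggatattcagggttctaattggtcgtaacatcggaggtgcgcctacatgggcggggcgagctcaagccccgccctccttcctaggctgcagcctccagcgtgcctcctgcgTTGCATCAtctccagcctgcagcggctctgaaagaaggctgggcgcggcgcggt
Slc7a7: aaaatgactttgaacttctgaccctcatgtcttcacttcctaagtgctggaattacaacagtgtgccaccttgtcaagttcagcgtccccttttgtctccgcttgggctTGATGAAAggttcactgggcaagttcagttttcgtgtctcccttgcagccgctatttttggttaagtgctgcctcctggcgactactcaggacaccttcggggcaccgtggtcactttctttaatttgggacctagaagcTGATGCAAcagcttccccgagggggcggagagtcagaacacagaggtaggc
Slc38a6: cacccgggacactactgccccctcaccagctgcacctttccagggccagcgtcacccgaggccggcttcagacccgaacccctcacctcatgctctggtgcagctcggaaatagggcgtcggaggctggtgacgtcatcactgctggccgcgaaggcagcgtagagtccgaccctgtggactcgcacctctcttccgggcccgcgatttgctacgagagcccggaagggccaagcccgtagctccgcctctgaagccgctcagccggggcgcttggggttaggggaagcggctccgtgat
Of the 60 members, 42 had 63 promoter entries in the RefSeq table. The element core occurred in 4 of these 63 entries, of the 3 members Slc1a4, Slc7a7 and Slc7a11, and in 3.97% of all 32851 promoter entries. Slc7a11, the cystine and glutamate exchanger, holds the core on both strands, the first starting 66 bases before the start of transcription. Slc7a7 has 5 annotated promoters, of which 2 hold the core. The FOXH1 motif AATNNACA, searched because FOXH1 partners SMAD proteins, occurred in 5 of the 63 entries, of Slc1a2, Slc36a4, Slc38a4, Slc6a5 and Slc6a16, and in 12.2% of all promoter entries. The SMAD palindrome GTCTAGAC occurred in 0 of the 63 entries and in 0.213% of all promoter entries. None of the 3 motifs occurs in the Slc38a6 window.

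Levels are in FPKM, a fragment count corrected for the length of the gene and the size of the library, as the authors deposited them. A filter of at least 1 FPKM in at least 2 of the 10 libraries was met by 24 members, namely 3 of 7 in Slc1, 1 of 2 in Slc3, 3 of 18 in Slc6, 7 of 15 in Slc7, 1 of 4 in Slc36, 7 of 11 in Slc38 and 2 of 3 in Slc43. The other 36 lay under 1 FPKM in every library, 15 of them under 0.1 FPKM, and 0 members were listed at 0 in every library. Mean levels over the 10 libraries reached 10 FPKM in 10 members. Slc1a3, Slc38a3 and Slc43a1 passed the filter through EB libraries alone, with Slc38a3 at 0.25 and 0.19 FPKM in ESCs, so a count of members that differ between EBs and ESCs is shaped in part by the filter. For genes named below, counting by symbol could split reads with overlapping genes, and strandedness is not given in the sources used here.

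**Figure D1:**
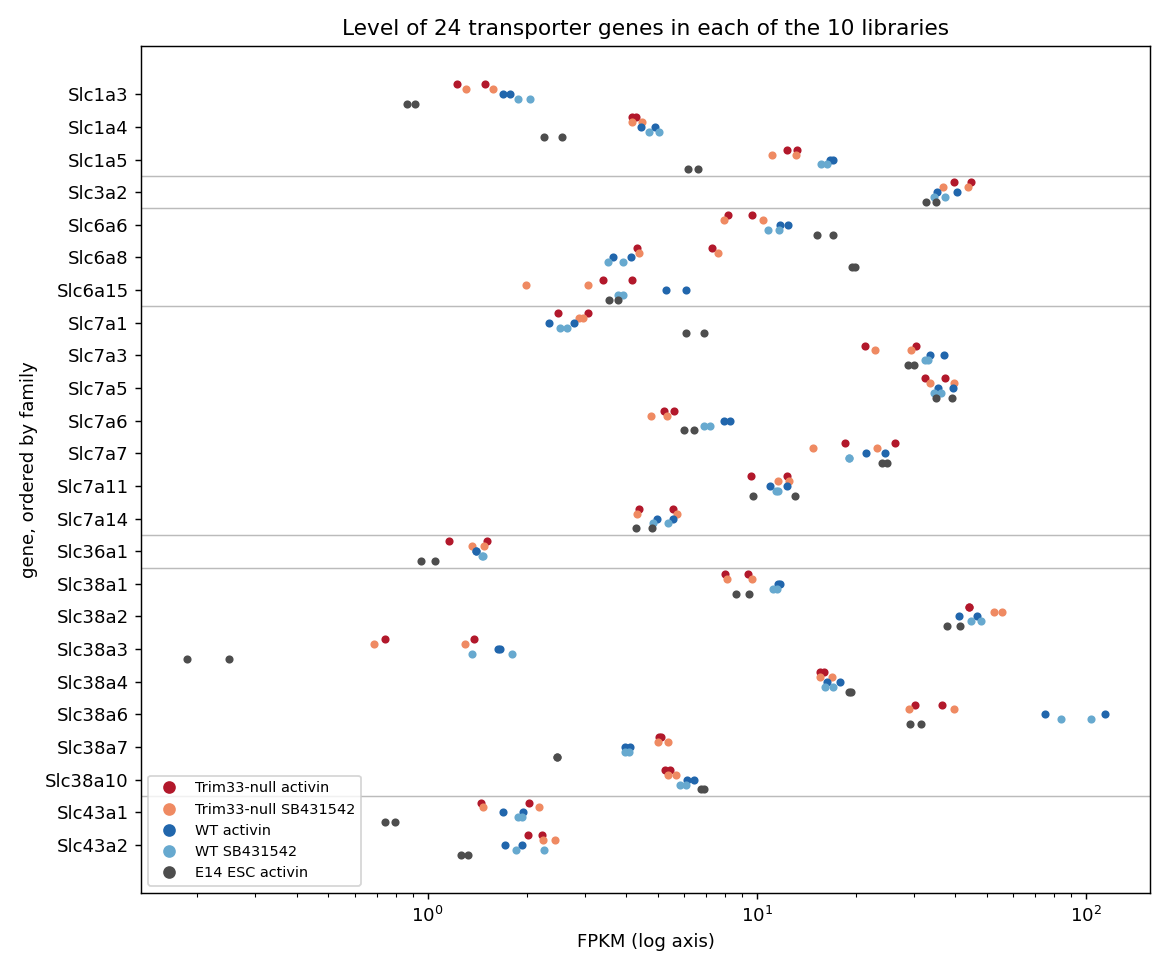
Level of the 24 members that passed the filter in each of the 10 libraries (FPKM on a log axis), ordered by family, with a dot for each library coloured by group. The Slc38a6 dots of WT EBs lie at 74.6 FPKM or above, apart from those of the other groups, and the Slc6a8 dots of ESCs lie at 19.4 and 19.8 FPKM, above all EB libraries.

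The summed level of the 60 members was 311 to 321 FPKM in Trim33-null EBs, 376 to 404 FPKM in WT EBs and 308 to 326 FPKM in ESCs. Slc38a6 alone accounted for most of that gap, since without it the sums were 275 to 292 FPKM in Trim33-null EBs, 283 to 313 FPKM in WT EBs and 277 to 297 FPKM in ESCs, and these ranges overlap. The members held 0.124% to 0.130% of all FPKM in Trim33-null EBs, 0.156% to 0.171% in WT EBs and 0.128% to 0.137% in ESCs. The 2 largest families were Slc7 and Slc38. Slc7 summed to 104 to 113 FPKM in Trim33-null EBs, 114 to 130 FPKM in WT EBs and 115 to 125 FPKM in ESCs.

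**Figure D2:**
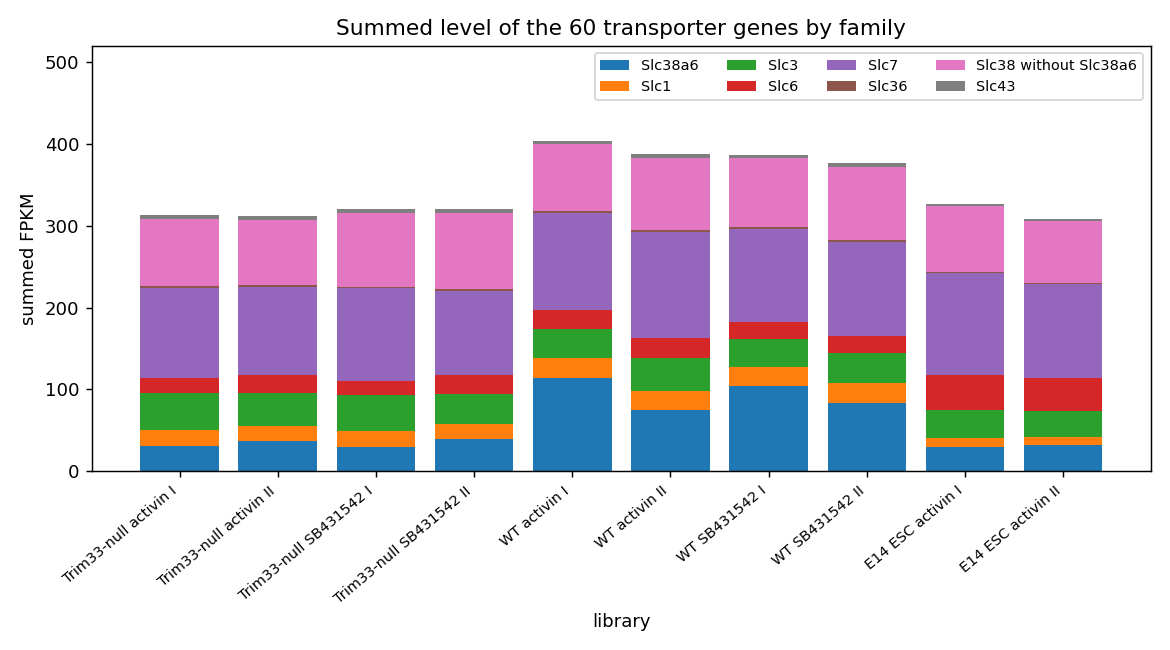
Summed FPKM of the 60 members in each library, stacked by family with Slc38a6 drawn apart from the rest of Slc38. The 4 WT EB columns reach 376 to 404 FPKM, and the Slc38a6 segment is the part that stands out in them.

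Slc3a2, the CD98 heavy chain, was among the highest members in every group. It had 44.6 and 39.5 FPKM in Trim33-null EBs under activin, 43.6 and 36.8 FPKM in Trim33-null EBs under SB431542, 35.3 and 40.4 FPKM in WT EBs under activin, 34.4 and 37.2 FPKM in WT EBs under SB431542, and 35.0 and 32.7 FPKM in ESCs. All ranges overlapped between genotypes. Its most abundant partner, the large neutral amino acid exchanger Slc7a5, had 32.4 to 39.7 FPKM in Trim33-null EBs, 34.6 to 39.3 FPKM in WT EBs and 34.9 and 39.0 FPKM in ESCs, and also overlapped throughout. The summed level of the light chains over that of Slc3a2 was 1.75 to 1.86 in Trim33-null EBs, 2.00 to 2.21 in WT EBs and 2.28 to 2.39 in ESCs, so the 3 ranges did not overlap. This ratio is of FPKM values, which are per length, and was not put to a test. The light chains summed were Slc7a5, Slc7a6, Slc7a7, Slc7a8, Slc7a10 and Slc7a11. Their sum alone overlapped between genotypes, at 65.9 to 81.0 FPKM in Trim33-null EBs and 72.9 to 83.3 FPKM in WT EBs. Among single genes, 24.2% were lower in every Trim33-null than in every WT EB library.

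The cationic amino acid carriers of Slc7 showed a shift between members. Slc7a3 had 21.3 to 30.4 FPKM in Trim33-null EBs, 32.3 to 37.0 FPKM in WT EBs and 29.9 and 28.8 FPKM in ESCs, while Slc7a1, the ubiquitous arginine and lysine carrier, had 2.48 to 3.07 FPKM in Trim33-null EBs, 2.34 to 2.79 FPKM in WT EBs and 6.89 and 6.09 FPKM in ESCs. The ratio of Slc7a3 to Slc7a1 was 6.95 to 12.3 in Trim33-null EBs, 12.4 to 14.3 in WT EBs and 4.34 and 4.73 in ESCs. Slc7a3 was thus the higher of this pair in every library. Slc7a11 had 9.56 to 12.5 FPKM in Trim33-null EBs, 11.0 to 12.3 FPKM in WT EBs and 13.1 and 9.75 FPKM in ESCs, with all groups overlapping.

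System A carriers, which bring in small neutral amino acids with sodium, are Slc38a1, Slc38a2 and Slc38a4, all on chromosome 15. Slc38a2 was the highest of them, at 44.0 to 55.5 FPKM in Trim33-null EBs, 41.0 to 47.9 FPKM in WT EBs and 41.4 and 37.8 FPKM in ESCs. Slc38a4 had 15.5 to 16.9 FPKM in Trim33-null EBs, 16.1 to 17.9 FPKM in WT EBs and 19.3 and 19.0 FPKM in ESCs, so that the ESC libraries lay above all EB libraries. Slc38a1 had 8.0 to 9.63 FPKM in Trim33-null EBs, 11.2 to 11.8 FPKM in WT EBs and 9.45 and 8.63 FPKM in ESCs, so that the WT EB libraries lay above the rest.

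Trim33 itself was lower in the EBs labelled null. It had 2.23 and 2.69 FPKM under activin and 2.38 and 2.83 FPKM under SB431542 in Trim33-null EBs, against 11.4 and 10.1 FPKM under activin and 11.0 and 11.1 FPKM under SB431542 in WT EBs, and 6.60 and 6.25 FPKM in ESCs. The Y-linked Eif2s3y was at 0.0922 to 0.369 FPKM in Trim33-null EBs, 9.49 to 10.5 FPKM in WT EBs and 9.42 and 10.4 FPKM in ESCs, so more than Trim33 differed between the lines, and its part in the genotype results was not tested. Summed FPKM per library was 236708 to 251582. The table holds no read counts, so depth is unknown. Markers of pluripotent cells summed to 292 to 386 FPKM in Trim33-null EBs, 291 to 381 FPKM in WT EBs and 709 to 726 FPKM in ESCs. Within this sum, Zfp42 had 11.9 to 15.2 FPKM in Trim33-null EBs, 5.23 to 6.49 FPKM in WT EBs and 193 and 198 FPKM in ESCs. Esrrb had 11.9 to 13.3, 4.92 to 8.30, and 40.9 and 37.8 FPKM in that order. Klf4 had 2.95 to 6.13, 1.34 to 1.60, and 13.3 and 12.7 FPKM. Sox2 was also higher in every Trim33-null than in every WT EB library, whereas Pou5f1 and Nanog overlapped between genotypes. The 5 primed epiblast and streak markers summed to 91.9 to 149 FPKM in Trim33-null EBs, 242 to 269 FPKM in WT EBs and 84.1 to 94.2 FPKM in ESCs. Dnmt3b made up most of this sum, at 74.4 to 126, 189 to 201, and 77.6 and 68.1 FPKM in that order. Fgf5 had 5.44 to 13.97 FPKM in Trim33-null EBs, below every WT EB library but above ESCs, at 0.637 and 0.537 FPKM. Otx2 was lower in every Trim33-null library than in every WT EB and ESC library. T and Eomes overlapped between genotypes and were higher in every EB library than in ESCs. The 5 fibroblast markers summed to 9.42 to 25.7 FPKM in Trim33-null EBs, with Col1a1 at 8.98 and 10.3 FPKM in the column II libraries, 5.70 to 8.67 FPKM in WT EBs and 3.59 to 3.77 FPKM in ESCs. Trophoblast markers summed to 7.29 to 9.72 FPKM in Trim33-null EBs, 4.95 to 6.80 FPKM in WT EBs and 5.90 to 6.63 FPKM in ESCs, with 4 of 5 under 1 FPKM in every library. Tfap2c made up most of this sum, at 5.71 to 8.27, 3.28 to 5.41, and 6.04 and 5.21 FPKM in that order. Gata3 was also higher in every Trim33-null than in every WT EB library, whereas Cdx2, Elf5 and Krt7 overlapped between genotypes. All 5 markers of extraembryonic endoderm were under 1 FPKM in every library, as were the 2 blood markers in the table. None of these markers was at 0 in all libraries, their part in the results below was not tested, and in bulk RNA fewer cells of a type and less RNA per cell cannot be told apart.

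The genotype comparison asked which carriers differed between Trim33-null and WT EBs at day 2.5. Slc38a6, a less studied carrier of its family, and Slc7a6, a CD98 light chain that exchanges cationic for neutral amino acids, fell in Trim33-null EBs, and Slc38a7, a lysosomal glutamine exporter, rose by a smaller amount, a call that missed the threshold in 12 of 15 alternatives under activin and 10 of 15 under SB431542. These 3 of 24 members passed under activin, 1 higher and 2 lower, and the same 3 passed under SB431542. The 2 results are not independent, since libraries of the same column numeral deviated together across treatments. The correlation across genes was 0.907 in Trim33-null and 0.456 in WT EBs, and the fit took no account of it. All 3 members missed the threshold with a mean per numeral over both treatments, as given below. Differences were tested with limma on log2(FPKM + 1) over all 8 EB libraries, with Benjamini-Hochberg adjustment over 11317 genes and a threshold of 0.05, and values in these units are called log2 differences. Of all genes, 8.09% passed under activin (3.40% higher, 4.68% lower) and 8.08% under SB431542 (4.08% higher, 3.99% lower), against 12.5% of the members tested in each. The median log2 difference of the members was -0.11 under activin and -0.04 under SB431542, and that of all genes was -0.03 and -0.02 in the same order of treatments.

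Slc38a6 had 30.2 and 36.5 FPKM under activin in Trim33-null EBs, against 113.6 and 74.6 FPKM in WT EBs. Under SB431542 it had 28.9 and 39.6 FPKM in Trim33-null EBs, against 103.6 and 83.4 FPKM in WT EBs. The 4 null libraries lay below the 4 WT libraries with no overlap, at the level of the ESCs, which had 29.1 and 31.4 FPKM. The log2 difference between null and WT was -1.44 (SE 0.24, adjusted p = 0.0247, limma) under activin and -1.43 (SE 0.24, adjusted p = 0.0240) under SB431542. The 2 WT columns also differed from each other, with column I at 1.37 times column II on average. Trmt5, which RefSeq places head to head with Slc38a6 on chromosome 12, had 6.35 to 6.93 FPKM in Trim33-null EBs, 7.02 to 7.70 FPKM in WT EBs and 10.7 and 11.2 FPKM in ESCs, a far smaller gap, though also without overlap between genotypes. The neighbour Mnat1 was higher in every Trim33-null library, at 4.24 to 4.42 FPKM against 3.76 to 4.01 FPKM in WT EBs. Tmem30b overlapped between genotypes, and D830013O20Rik did not exceed 0.0454 FPKM in any library.

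Slc7a6 had 5.21 and 5.59 FPKM under activin in Trim33-null EBs, against 8.25 and 7.91 FPKM in WT EBs, and 4.77 and 5.32 FPKM under SB431542 in Trim33-null EBs, against 7.18 and 6.89 FPKM in WT EBs. The null libraries were the lowest of all 10, with ESCs at 6.44 and 6.01 FPKM in between. Its log2 difference was -0.51 (SE 0.07, adjusted p = 0.0162) under activin and -0.41 (SE 0.07, adjusted p = 0.0237) under SB431542. Slc38a7 had 5.11 and 5.03 FPKM under activin in Trim33-null EBs, against 3.98 and 4.12 FPKM in WT EBs, and 5.02 and 5.38 FPKM under SB431542 in Trim33-null EBs, against 3.97 and 4.08 FPKM in WT EBs. Here the null libraries were the highest and the ESC libraries, at 2.48 and 2.47 FPKM, the lowest. Its log2 difference was 0.27 (SE 0.06, adjusted p = 0.0447) under activin and 0.30 (SE 0.06, adjusted p = 0.0316) under SB431542.

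**Figure D3:**
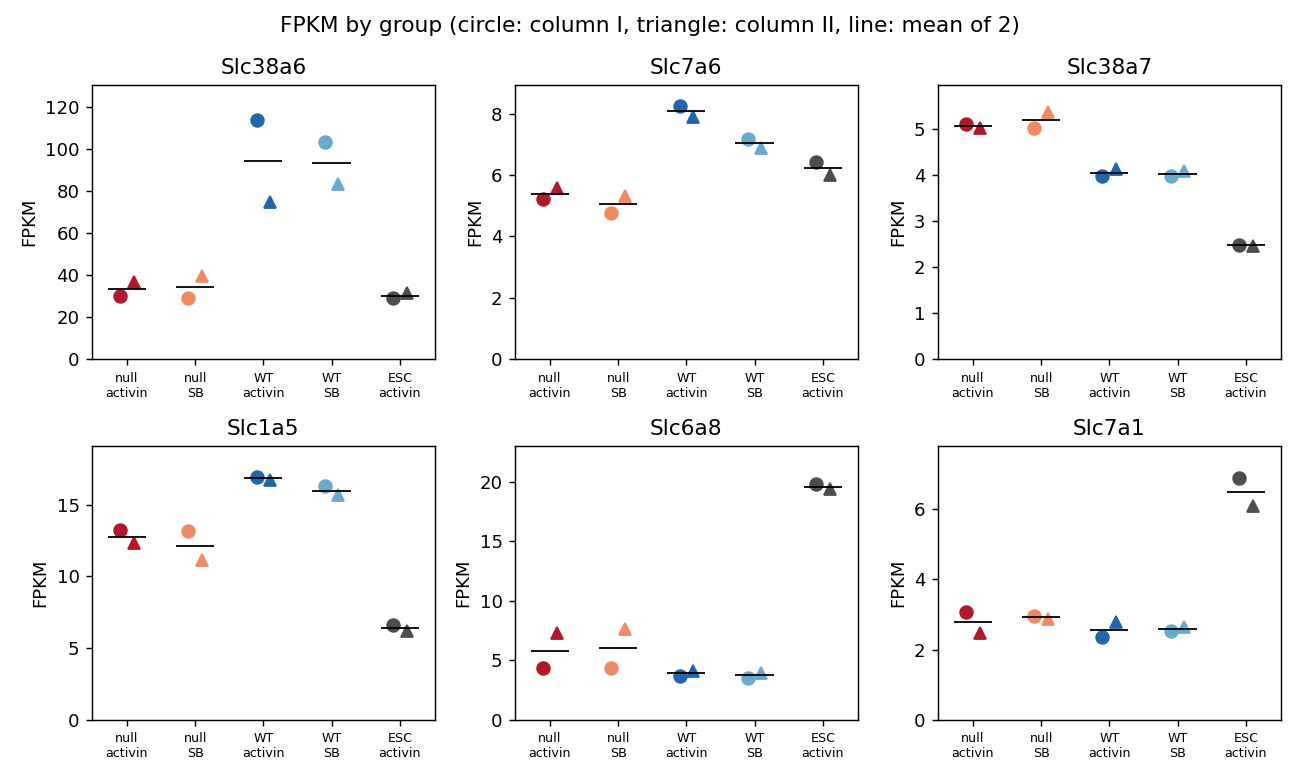
FPKM of 6 members by group, with a circle for column I, a triangle for column II and a line for the mean of 2. Slc38a6 and Slc7a6 are lower in every Trim33-null library than in every WT library, Slc38a7 is higher, and Slc6a8 and Slc7a1 are highest in ESCs.

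Without a test, 10 of the 24 members separated the 4 Trim33-null from the 4 WT libraries. Slc38a7 and the X-linked creatine carrier Slc6a8 were higher in every null library (2 members, where 15.8% of all genes did so). The glutamate carrier Slc1a3, the neutral amino acid carrier Slc1a5, the taurine carrier Slc6a6, Slc7a3, Slc7a6, Slc38a1, Slc38a6 and Slc38a10 were lower in every null library (8 members, where 24.2% of all genes did so). Slc1a5, which exchanges glutamine, had 13.2 and 12.3 FPKM under activin in Trim33-null EBs, against 17.0 and 16.7 FPKM in WT EBs. Its log2 difference was -0.37 in each treatment, with adjusted p = 0.0531 under activin and 0.0536 under SB431542. Slc6a15, a carrier of branched-chain amino acids and proline, had log2 differences of -0.48 under each treatment (adjusted p = 0.108 under activin and 0.113 under SB431542), and its libraries overlapped between genotypes.

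The Trim33-null libraries of columns I and II differed from each other, in shares of the members near those of all genes. Column I was higher in both treatments for 10 members and lower for 7, where 39.4% and 34.5% of all genes did so. Slc6a8 had 4.33 and 4.39 FPKM in column I and 7.30 and 7.62 FPKM in column II, a ratio of 0.585. Slc38a3, a system N glutamine carrier, had 1.39 and 1.30 FPKM in column I and 0.743 and 0.687 FPKM in column II, a ratio of 1.88. For Slc7a3 and Slc6a6, the gap between these columns was about as large as that between genotypes. The ratio of column I to column II was 0.736 for Slc7a3, where that of Trim33-null to WT EBs was 0.766. For Slc6a6 the ratios were 0.799 and 0.776. In WT EBs the ratio of column I to column II lay between 0.851, for Slc43a2, and 1.37, for Slc38a6, over the 24 members. The fibroblast markers moved with the numeral too, as given above, and their part in it was not tested.

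Leaving out a library ended the genotype calls in several cases. Under activin the count was 0 without either Trim33-null activin library or without either WT activin library, 1 without either WT SB431542 library and 4 without either Trim33-null SB431542 library, and under SB431542 it was 0 without Trim33-null SB431542 II, WT SB431542 I or WT SB431542 II, 2 without Trim33-null SB431542 I, 0 of them among the 3 named, and 1 without either WT activin library. With the column numeral as a random block, Slc38a6 and Slc7a6 still passed in both treatments, Slc38a7 did not (adjusted p = 0.0774 under activin and 0.0553 under SB431542), and Slc38a1 passed under activin (log2 difference -0.39, adjusted p = 0.0467). With the 2 treatments averaged into a mean per numeral, an alternative chosen after seeing the data, 0 members passed, at adjusted p = 0.0523 for Slc38a6, 0.0611 for Slc7a6, 0.0908 for Slc38a7 and 0.122 for Slc38a1 (limma). With no filter on low values 1 of 60 members passed under activin (2.46% of all genes) and 2 under SB431542 (2.87% of all genes).

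**Figure D4:**
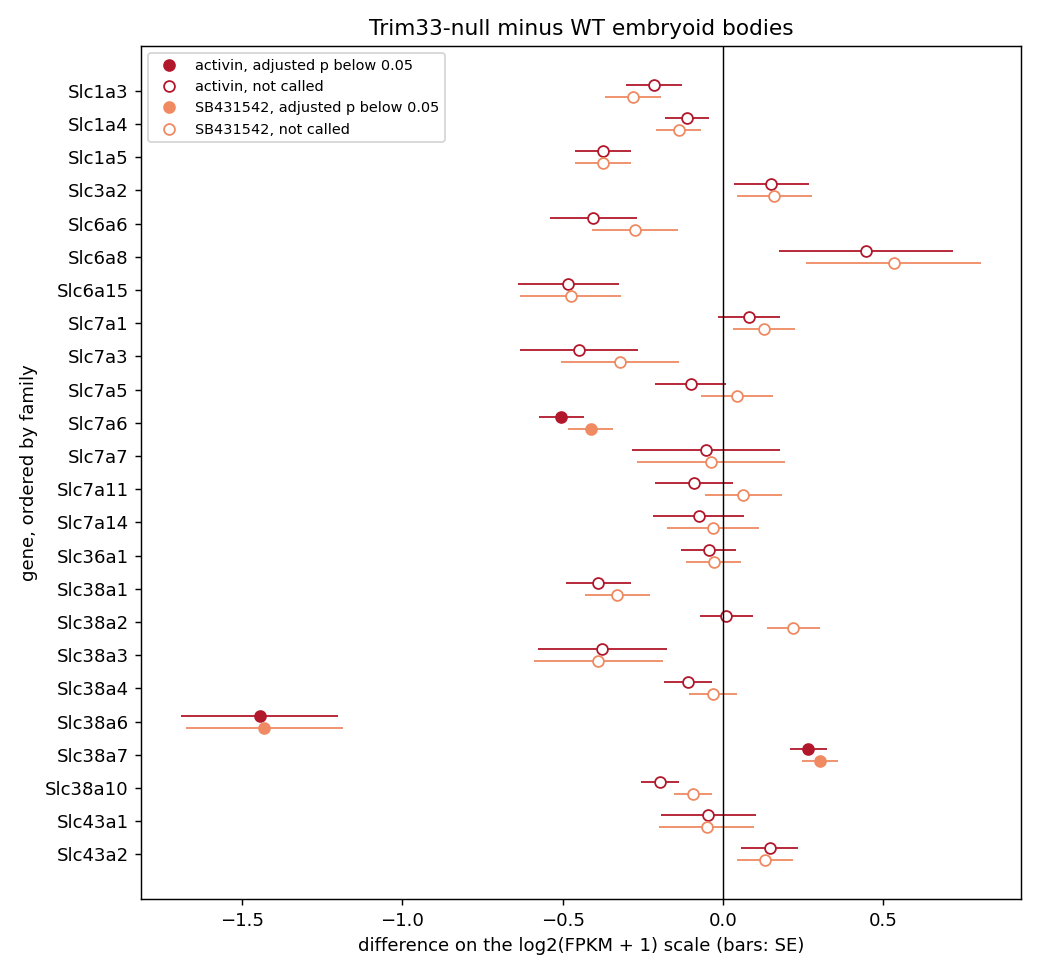
Difference between Trim33-null and WT EBs for the 24 members tested on the log2(FPKM + 1) scale, with bars of 1 SE, under activin (red) and SB431542 (orange). Filled points passed an adjusted p of 0.05 and are Slc7a6, Slc38a6 and Slc38a7 in each treatment, with Slc38a6 lowest at -1.44 and -1.43.

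The 2 h treatment comparison asked whether activin changed transporter RNA relative to receptor inhibition. No difference passed the test: limma called 0 of 24 members in Trim33-null EBs, where 0.115% of all genes passed, 0 in WT EBs, where 0.221% passed, and 0 for the difference in response between genotypes, where 0.00% passed. At an unadjusted p under 0.05 there were 2 members in Trim33-null EBs (Slc6a15 and Slc38a2), 2 in WT EBs (Slc6a15 and Slc7a6) and 0 for the difference in response. Slc6a15 had 4.18 and 3.41 FPKM under activin, against 3.07 and 1.99 FPKM under SB431542, in Trim33-null EBs, and 5.30 and 6.08 FPKM under activin, against 3.80 and 3.91 FPKM under SB431542, in WT EBs. The groups did not overlap within either genotype, and the log2 differences were 0.45 (SE 0.16) in Trim33-null and 0.46 (SE 0.16) in WT EBs. Slc38a2 had 44.0 and 44.0 FPKM under activin, against 52.6 and 55.5 FPKM under SB431542, in Trim33-null EBs, and 41.0 and 46.6 FPKM under activin, against 44.7 and 47.9 FPKM under SB431542, in WT EBs. Its log2 differences were -0.29 (SE 0.08) in Trim33-null and -0.08 (SE 0.08) in WT EBs. The median log2 difference of the members was -0.03 in Trim33-null and 0.04 in WT EBs, against -0.02 and 0.00 for all genes.

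EBs and E14 ESCs, all given activin, differed in most of the transporters tested. In Trim33-null EBs 14 of 24 members passed, 9 higher and 5 lower, where 59.8% of 11661 genes passed (30.2% higher, 29.6% lower). In WT EBs 15 passed, 12 higher and 3 lower, where 56.9% of genes passed (30.5% higher, 26.4% lower). The share of members passing, 58.3% in Trim33-null and 62.5% in WT EBs, was near that of all genes in each. The 2 comparisons share the ESC libraries, so values for each are given side by side.

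The 3 Slc1 members tested rose in both EB types, although Slc1a3, at 0.92 and 0.87 FPKM in ESCs, passed the filter through EB libraries alone, which favours a rise. Slc1a5 had 13.2 and 12.3 FPKM in Trim33-null EBs and 17.0 and 16.7 FPKM in WT EBs, against 6.60 and 6.19 FPKM in ESCs. Every EB library lay above both ESC libraries, and the log2 differences were 0.90 (SE 0.08, adjusted p = 0.000112, limma) in Trim33-null and 1.27 (SE 0.08, adjusted p = 2.24e-05) in WT EBs. Slc1a4, which exchanges alanine, serine and cysteine, rose by 0.62 in Trim33-null and 0.73 in WT EBs, and Slc1a3 by 0.32 and 0.53, on the log2 scale.

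In Slc6 the creatine and taurine carriers fell. Slc6a8 had 4.33 and 7.30 FPKM in Trim33-null EBs and 3.65 and 4.14 FPKM in WT EBs, against 19.8 and 19.4 FPKM in ESCs. Its log2 differences were -1.63 (SE 0.25, adjusted p = 0.00107) in Trim33-null and -2.07 (SE 0.25, adjusted p = 0.000313) in WT EBs, and it was the lowest of the members in each. Slc6a6 had 8.15 and 9.67 FPKM in Trim33-null EBs and 12.4 and 11.8 FPKM in WT EBs, against 17.0 and 15.2 FPKM in ESCs, with log2 differences of -0.79 and -0.39. Its call in WT EBs (adjusted p = 0.0347, limma) missed the threshold in 7 of 15 alternatives. Slc6a15 rose in WT EBs (log2 difference 0.52), and had a log2 difference of 0.03 in Trim33-null EBs.

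Of the 7 Slc7 members tested, 1 passed in Trim33-null and 2 in WT EBs. Slc7a1 fell, with log2 differences of -0.99 (SE 0.10, adjusted p = 0.000148) in Trim33-null and -1.07 (SE 0.10, adjusted p = 8.68e-05) in WT EBs. Slc7a6 rose in WT EBs (log2 difference 0.33) and had -0.17 (adjusted p = 0.0606) in Trim33-null EBs. Slc7a3, Slc7a5, Slc7a7, Slc7a11 and Slc7a14 did not pass in either, with log2 differences of -0.20 to 0.10 in Trim33-null and -0.08 to 0.25 in WT EBs. Slc3a2 rose in Trim33-null EBs (0.30, adjusted p = 0.0442), a call that missed the threshold in 8 of 16 alternatives, and had 0.15 in WT EBs.

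The Slc38 family was mixed. Slc38a7 rose in both, with log2 differences of 0.81 (SE 0.05, adjusted p = 3.48e-05) in Trim33-null and 0.54 (SE 0.05, adjusted p = 0.000139) in WT EBs. Slc38a3 had 1.39 and 0.743 FPKM in Trim33-null EBs and 1.65 and 1.64 FPKM in WT EBs, against 0.25 and 0.19 FPKM in ESCs, and rose by 0.74 and 1.12 on the log2 scale, having passed the filter through EB libraries alone. Slc38a6 rose in WT EBs (1.58, SE 0.23, adjusted p = 0.000759), and had 0.13 (adjusted p = 0.632) in Trim33-null EBs. Slc38a1 rose in WT EBs (0.34) and had -0.05 in Trim33-null EBs. In Trim33-null EBs Slc38a4 (-0.27) and Slc38a10 (-0.30) fell, and their values in WT EBs, -0.16 and -0.11, did not pass.

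Slc36a1, a proton-coupled carrier of the lysosome, rose by 0.22 in Trim33-null EBs (adjusted p = 0.0463, missing the threshold in 11 of 16 alternatives) and 0.26 in WT EBs on the log2 scale. The facilitative branched-chain carriers rose too, Slc43a1, which passed the filter through EB libraries alone, by 0.62 and 0.67 and Slc43a2 by 0.45 and 0.30. Without a test, 8 members lay higher in all 8 EB libraries than in both ESC libraries and 5 lay lower, where 34.4% and 29.3% of all genes did so. The median log2 difference of the members was 0.06 in Trim33-null and 0.26 in WT EBs, against 0.02 and 0.04 for all genes. With no filter on low values 28 of 60 members passed in Trim33-null EBs (38.8% of all genes) and 32 in WT EBs (37.4% of all genes). Without ESC II the count in Trim33-null EBs was 9. Leaving out a library of the comparison in Trim33-null EBs ended the calls of Slc1a3 and Slc3a2 (without Trim33-null activin I), Slc36a1 and Slc38a4 (without Trim33-null activin II), Slc3a2, Slc36a1 and Slc38a4 (without ESC I), and Slc1a3, Slc3a2, Slc36a1, Slc38a3 and Slc38a4 (without ESC II), with adjusted p of 0.0525 to 0.259. In WT EBs it ended those of Slc36a1, Slc38a1 and Slc6a6 (without WT activin I), Slc36a1, Slc43a2, Slc6a6 and Slc6a15 (without ESC I), and all 5 of these (without WT activin II or without ESC II), with adjusted p of 0.0563 to 0.174.

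**Figure D5:**
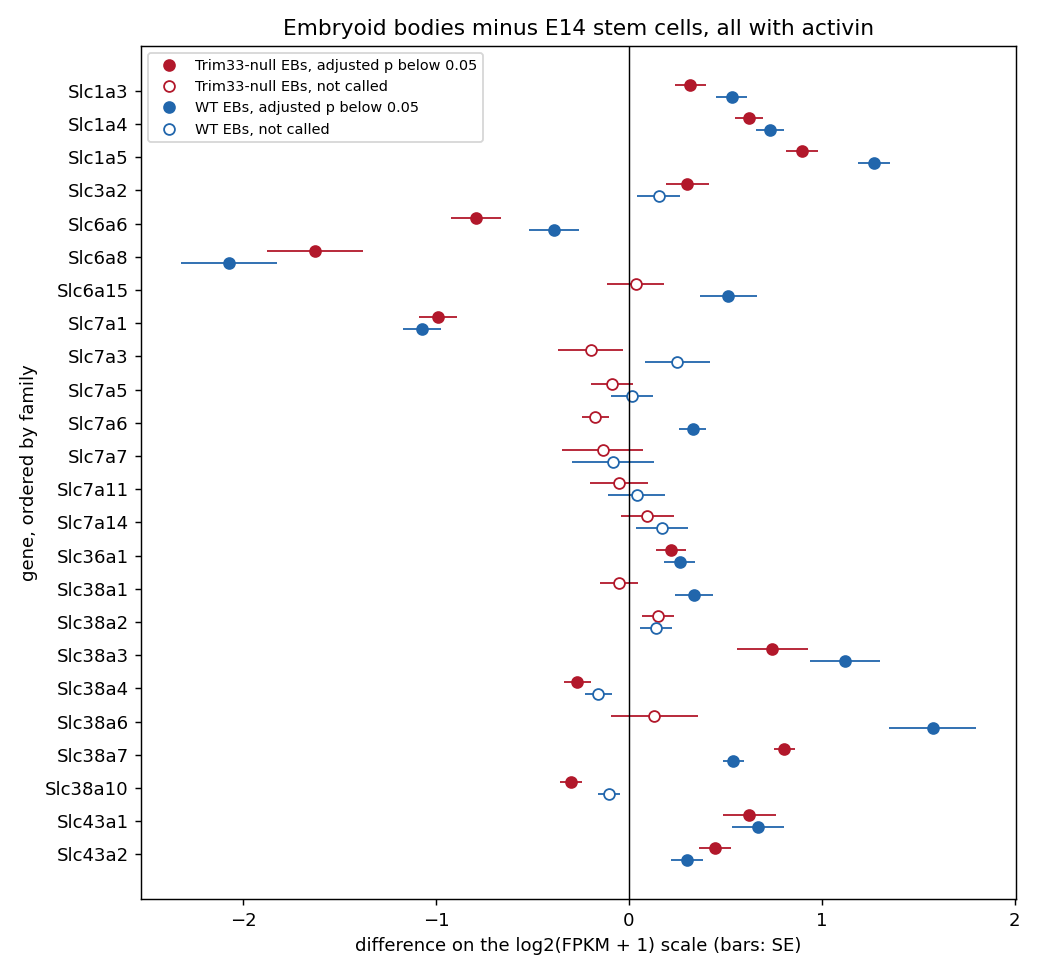
Difference between EBs and E14 ESCs, all given activin, for the 24 members on the log2(FPKM + 1) scale with bars of 1 SE, for Trim33-null (red) and WT (blue) EBs. Filled points passed an adjusted p of 0.05, 14 in Trim33-null and 15 in WT EBs, with Slc6a8 lowest in both.

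Other genes of amino acid supply were read against the same background shares, 8.09% and 8.08% of all genes for the genotype comparison under activin and SB431542, and 59.8% and 56.9% for Trim33-null and WT EBs against ESCs. Of 24 genes of the amino acid starvation response through ATF4, 23 were tested, and with limma only Cebpg, a partner of ATF4, fell in Trim33-null against WT EBs (log2 difference -0.32 under activin and -0.36 under SB431542). Against ESCs 7 rose and 7 fell in Trim33-null EBs and 7 rose and 4 fell in WT EBs, which is near the background share in the first and below it in the second. Atf4 rose by 0.61 and 0.66 and its target Ddit4, an mTORC1 inhibitor, by 2.06 and 1.72, whereas Asns, which makes asparagine, had -0.72 and -0.69 and Cth, which makes cysteine, -1.65 and -1.92, in Trim33-null and WT EBs in that order. The list therefore held genes moving in both directions.

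Of 28 genes of amino acid sensing by mTORC1, Sec13, a subunit of the GATOR2 complex and of the COPII coat, rose in Trim33-null against WT EBs (0.47 under activin and 0.49 under SB431542). Against ESCs 8 rose and 4 fell in Trim33-null EBs and 10 rose and 1 fell in WT EBs, which is below the background share in each. Those that rose included the Rag GTPase Rragc (1.29 in Trim33-null, 0.89 in WT) and its partner Flcn (0.87 and 0.82). Mtor itself was lower in EBs under activin, at 2.43 and 2.32 FPKM in Trim33-null and 2.95 and 2.70 FPKM in WT EBs, against 4.31 and 3.72 FPKM in ESCs. Of 19 other amino acid and peptide carriers, 10 were tested. The peptide carrier Slc15a2 fell in Trim33-null against WT EBs (-0.71 under activin and -0.80 under SB431542), and the mitochondrial glutamate carrier Slc25a22 fell under activin (-0.30). Against ESCs 3 rose and 2 fell in Trim33-null EBs and 5 rose and 2 fell in WT EBs, with the mitochondrial carrier Slc25a12 at -1.28 in Trim33-null and -1.40 in WT EBs. Of 14 genes of amino acid use, Tdh, the threonine dehydrogenase on which mouse ESCs depend, rose in Trim33-null against WT EBs (0.84 under activin and 0.83 under SB431542), as did Glud1, glutamate dehydrogenase (0.37 and 0.45). Against ESCs Tdh fell, by 1.10 in Trim33-null and 1.95 in WT EBs on the log2 scale, and in all 4 rose and 7 fell in Trim33-null EBs and 4 rose and 6 fell in WT EBs. In the treatment comparisons and the difference in response, 0 genes of these 4 lists passed.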

How the data were processed

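RNA-seq values of 10 libraries were used. They are FPKM deposited by the authors in a table with a column for each library; per the submitters' processing notes the tools included Cufflinks 2.2.1, STAR 2.4.0, Bowtie2 2.2.2 and CASAVA 1.8, with mm9 as build and no role stated for any tool. Gene annotation and read filters: not given in the sources used here. WT and ESC columns were matched to samples by numeral, and Trim33-null columns to their group. Of 29145 entries, 29032 symbols remained after keeping, for 113 repeats, the entry with the highest mean FPKM; all 60 members have a single entry.

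Members and gene lists were chosen with earlier results of these data known. Tests on log2(FPKM + 1) used the limma package, version 3.58.1, under R 4.3.3, with a trend on mean level, Benjamini-Hochberg adjustment over all genes tested and a threshold of 0.05. Genes needed 1 FPKM in at least 2 libraries. The 8 EB libraries were fitted together (4 residual degrees of freedom), and all 10 for EBs against ESCs (5 residual degrees of freedom). The scripts were tested on simulated data. Permuting 2 against 2 libraries allows no two-sided p under 0.333, which is why calls depend on variance pooled over groups and genes. The scale understates changes of low genes.

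The table gives no read counts. Between 6.81% and 10.6% of values under 0.06 FPKM fell on a shared step within 0.02 on the log2 scale, too few to recover whole reads, so depth is unknown and no count test was run. Genes listed at 0 numbered 5810 to 8540 per library.

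Libraries with the same column numeral deviated together across treatments within a genotype (correlation across genes 0.907 in Trim33-null and 0.456 in WT EBs), so the numerals were taken to pair the treatments; what they stand for is not given in the labels. Alternatives were a pseudocount of 0.1, no filter, median-of-ratios scaling, a fit to the compared libraries alone, the numeral as a block, and leaving out each library; leaving out both Trim33-null libraries of a numeral and averaging over treatments were chosen after seeing the data. Named genes were those called in any comparison, the 2 highest members of each family, and Slc3a2, Slc7a5, Slc7a11, Slc7a3, Slc38a2 and Slc1a5; Slc7a7 and Slc7a14, and the low members given under other observations, were chosen after their values were seen.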

Additional observations from a re-analysis of the deposited data

How the results depend on the processing

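Over the 35 gene differences called as reported and 538 alternative values of them, 446 kept their call, 92 missed the threshold and 0 changed sign. Only called differences were followed, and leaving out a library outside a comparison leaves its log2 difference unchanged. The count of sign changes therefore says little about stability. The genotype calls were the least stable. Under activin, 3 members passed as reported, 1 with no filter on low values, 0 in a fit to the 4 libraries compared, 0 to 4 on leaving out each library, 10 without both Trim33-null libraries of column I (2 higher, 8 lower), 6 without both of column II (all lower) and 0 with means per column numeral over both treatments. Under SB431542, 3 passed as reported, 1 in the 4-library fit, 0 to 3 on leaving out each library, 9 without both Trim33-null libraries of column I and 0 with the means. By gene, the call missed the threshold in 12 of 15 alternatives under activin and 10 of 15 under SB431542 for Slc38a7, in 8 and 5 for Slc38a6 and in 5 and 7 for Slc7a6. For Trim33-null EBs against ESCs it did so in 11 of 16 for Slc36a1 and 8 of 16 for Slc3a2, and for WT EBs against ESCs in 7 of 15 for Slc6a6. For EBs against ESCs, no filter gave 28 calls in Trim33-null and 32 in WT EBs, since low members then enter, and leaving out each library gave 9 to 14 calls in Trim33-null and 10 to 15 in WT EBs. The counts of 0 in the treatment comparisons and in the difference in response stayed at 0 under each alternative run. With the column numeral as a replicate block, the treatment comparisons and the difference in response again gave 0 calls. A random block (consensus correlation 0.737) gave 3 genotype calls under activin and 2 under SB431542. WT EBs against ESCs gave 16 with a block by numeral, although the labels do not say that equal numerals pair EB and ESC libraries. No such block was fitted for Trim33-null EBs against ESCs because their numbers in the labels overlap in fewer than 2. The pseudocount of 0.1 and median-of-ratios scaling gave counts within 1.5 times those reported. Where 1 library of a group was left out, the lone library was assumed to vary like the other groups. The cause of these changes was not tested. With 2 libraries a group and no read counts, the depth behind each value is unknown.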

Other observations

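Among the 36 members under 1 FPKM in every library, some had patterns of their own, chosen here after their values were seen. Slc6a14, an X-linked carrier of neutral and cationic amino acids, had 0.704 and 0.898 FPKM under activin and 0.452 and 0.932 FPKM under SB431542 in Trim33-null EBs, against 0.0461 and 0.0648 FPKM under activin and 0.0337 and 0.0615 FPKM under SB431542 in WT EBs, and 0.0490 and 0.0313 FPKM in ESCs. Every Trim33-null library lay above every other library. Fitted with limma without a filter, its log2 difference between Trim33-null and WT EBs was 0.77 (adjusted p = 0.0528) under activin and 0.68 (adjusted p = 0.0650) under SB431542, so it did not pass.

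The cationic carrier Slc7a2 had 0.564 and 0.716 FPKM under activin in Trim33-null EBs, against 0.393 and 0.376 FPKM in WT EBs, and 0.140 and 0.110 FPKM in ESCs. Its groups did not overlap, and the genotype difference did not pass without a filter (log2 difference 0.24, adjusted p = 0.141, limma). The GABA carrier Slc6a11 had 0.182 to 0.211 FPKM in Trim33-null EBs, 0.193 to 0.278 FPKM in WT EBs, and 0.0219 and 0.0359 FPKM in ESCs. It rose in EBs against ESCs under activin (log2 difference 0.21, adjusted p = 0.000722, in Trim33-null and 0.31, adjusted p = 0.000146, in WT EBs). In the same fits without a filter, 16 of the 36 low members passed in Trim33-null EBs, where 38.8% of all genes passed, and 18 in WT EBs, where 37.4% passed, against ESCs. Between genotypes 0 passed under activin (2.46% of all genes) and 1, Slc6a12, under SB431542 (2.87% of all genes). All these levels are below 1 FPKM, and the number of fragments behind them is unknown.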
